A study of Mus musculus with 4 samples.

Results

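The genes described here are 44 mitosis and chromosome segregation genes of the mouse, chosen as a list of gene symbols with known roles in cell division. All 44 were found among the 23997 genes of the deposited RNA-Seq table. The study compared EGFP+ cells sorted by flow cytometry from cochleae at postnatal day 3. Lgr5+ progenitors came from Lgr5-EGFP-IRES-creERT2 mice and Lgr6+ progenitors from Lgr6-EGFP-IRES-CreERT2 mice, both on the C57BL/6 strain, and the labels give no treatment for either. In these lines the promoter of the named receptor gene drives EGFP together with a Cre that is activated by tamoxifen. Both receptors are Wnt targets that mark supporting cells able to give rise to hair cells (HCs). The paper describes the Lgr6+ cells, found among the inner pillar cells, as part of the wider Lgr5+ population. The labels list 2 libraries for each population. The methods give about 10000 sorted cells and state that the RNA of a population was divided into 3 fractions, so the replicates may share 1 extraction. The table gives 1 FPKM value (fragments per kilobase of transcript, scaled to the number of mapped fragments) for each gene in each population. The spread between replicates is therefore not known, and no difference below has a replicate check or a *p*-value.

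Mitosis is the step of the cell cycle in which duplicated chromosomes are condensed, attached to the spindle through their kinetochores and pulled apart. The spindle assembly checkpoint holds the cell until every kinetochore is attached. The anaphase-promoting complex (APC/C) then marks securin and cyclin B for breakdown, the cohesin ring is cut and the cell divides in cytokinesis. Most of the genes for these proteins are transcribed late in the cycle, and their RNA is scarce in cells that have left it. Cohesin, *Bub3* and *Stmn1* are also expressed by cells that do not divide. HCs and supporting cells of the cochlea are postmitotic after birth, but neonatal supporting cells can re-enter the cycle in culture. The question for which the study examined cell cycle genes was why the populations differ in proliferation. In culture, it counted more colonies and more spheres from Lgr5+ than from Lgr6+ cells. The RNA described here was taken from sorted cells and not from these cultures.

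Promoters of late cell cycle genes are known for a pair of short elements, the CCAAT box bound by NF-Y and the cell cycle genes homology region with the core TTTGAA. They were searched as CCAAT and TTTGAA on both strands, from 250 bases before to 50 bases after the RefSeq gene start on GRCm38.p6. A promoter was listed for 37 of the 44 genes, and not for *Aurkb*, *Cdc25c*, *Incenp*, *Kif20a*, *Smc4*, *Stmn1* and *Tpx2*. The CCAAT box was present in 28 of the 37 genes (75.7%) and TTTGAA in 26 (70.3%). Over all 27025 genes with a listed promoter the shares were 41.1% and 20.2%. Over the 10036 of them that were kept in the expression table they were 42.4% and 13.8%. Both motifs occurred together in 23 of the 37 genes (62.2%), against 6.80% of the kept genes. In 23 of the 26 genes with TTTGAA, the motif lay within 50 bases of the start on either side. A match to these letters is a description of the sequence and not evidence of binding.

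The stretches below show how the motifs lie together in the 5 genes with the largest changes between the populations among those found to hold both. Each runs 5′ to 3′ on the strand of the gene, from 120 bases before the start in the promoter table to 24 bases after it, and capitals mark the motifs on either strand. For *Cenpa* and *Kif23* this start lies 9 and 11 bases inside the gene interval given with their values. *Cenpa* is at chr5:30666766-30666909 on the plus strand and *Cdc20* at chr4:118437320-118437463 on the minus strand. *Kif11* is at chr19:37376262-37376405 on the plus strand, *Kif23* at chr9:61946776-61946919 on the minus strand and *Cdca8* at chr4:124936894-124937037 on the minus strand.
Cenpa: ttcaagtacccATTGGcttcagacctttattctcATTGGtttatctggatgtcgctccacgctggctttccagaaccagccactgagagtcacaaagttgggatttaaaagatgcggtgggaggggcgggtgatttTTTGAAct
Cdc20: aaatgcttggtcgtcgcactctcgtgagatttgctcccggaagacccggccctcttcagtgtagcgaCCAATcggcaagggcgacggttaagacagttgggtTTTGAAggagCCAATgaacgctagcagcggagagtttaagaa
Kif11: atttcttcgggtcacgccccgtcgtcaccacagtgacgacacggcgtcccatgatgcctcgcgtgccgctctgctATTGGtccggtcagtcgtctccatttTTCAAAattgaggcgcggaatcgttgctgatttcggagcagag
Kif23: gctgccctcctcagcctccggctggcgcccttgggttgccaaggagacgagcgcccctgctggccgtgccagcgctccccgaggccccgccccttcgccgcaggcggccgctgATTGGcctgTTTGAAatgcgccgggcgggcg
Cdca8: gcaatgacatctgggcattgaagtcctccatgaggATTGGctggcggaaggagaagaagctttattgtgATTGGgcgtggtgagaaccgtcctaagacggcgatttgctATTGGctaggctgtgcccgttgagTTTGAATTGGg

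*Cdca8* has 4 CCAAT boxes on the opposite strand in this stretch, the last of which shares bases with TTTGAA. In *Kif11* both motifs are on the opposite strand.

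Expression of the 44 genes fell into 3 levels. A mean FPKM of 10 or more over the populations was reached by 7 genes, *Stmn1*, *Pttg1*, *Bub3*, *Smc3*, *Cdc25b*, *Smc1a* and *Birc5*. A further 21 genes had a mean FPKM from 1 to 10, and 16 were under 1. The median of the 44 genes was 0.795 FPKM for Lgr5+ cells against 2.90 for Lgr6+ cells, whereas the medians of all genes kept by the rule below were 9.40 and 9.95. The sets are unlike, since 14 of the 44 genes were not kept by that rule, which lowers the medians of the list. *Stmn1*, which encodes the microtubule-destabilizing protein stathmin, alone made up 52.6% of the summed FPKM of the list in Lgr5+ cells and 48.8% in Lgr6+ cells. Without it, the sums were 252 and 335.

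**Figure D1:**
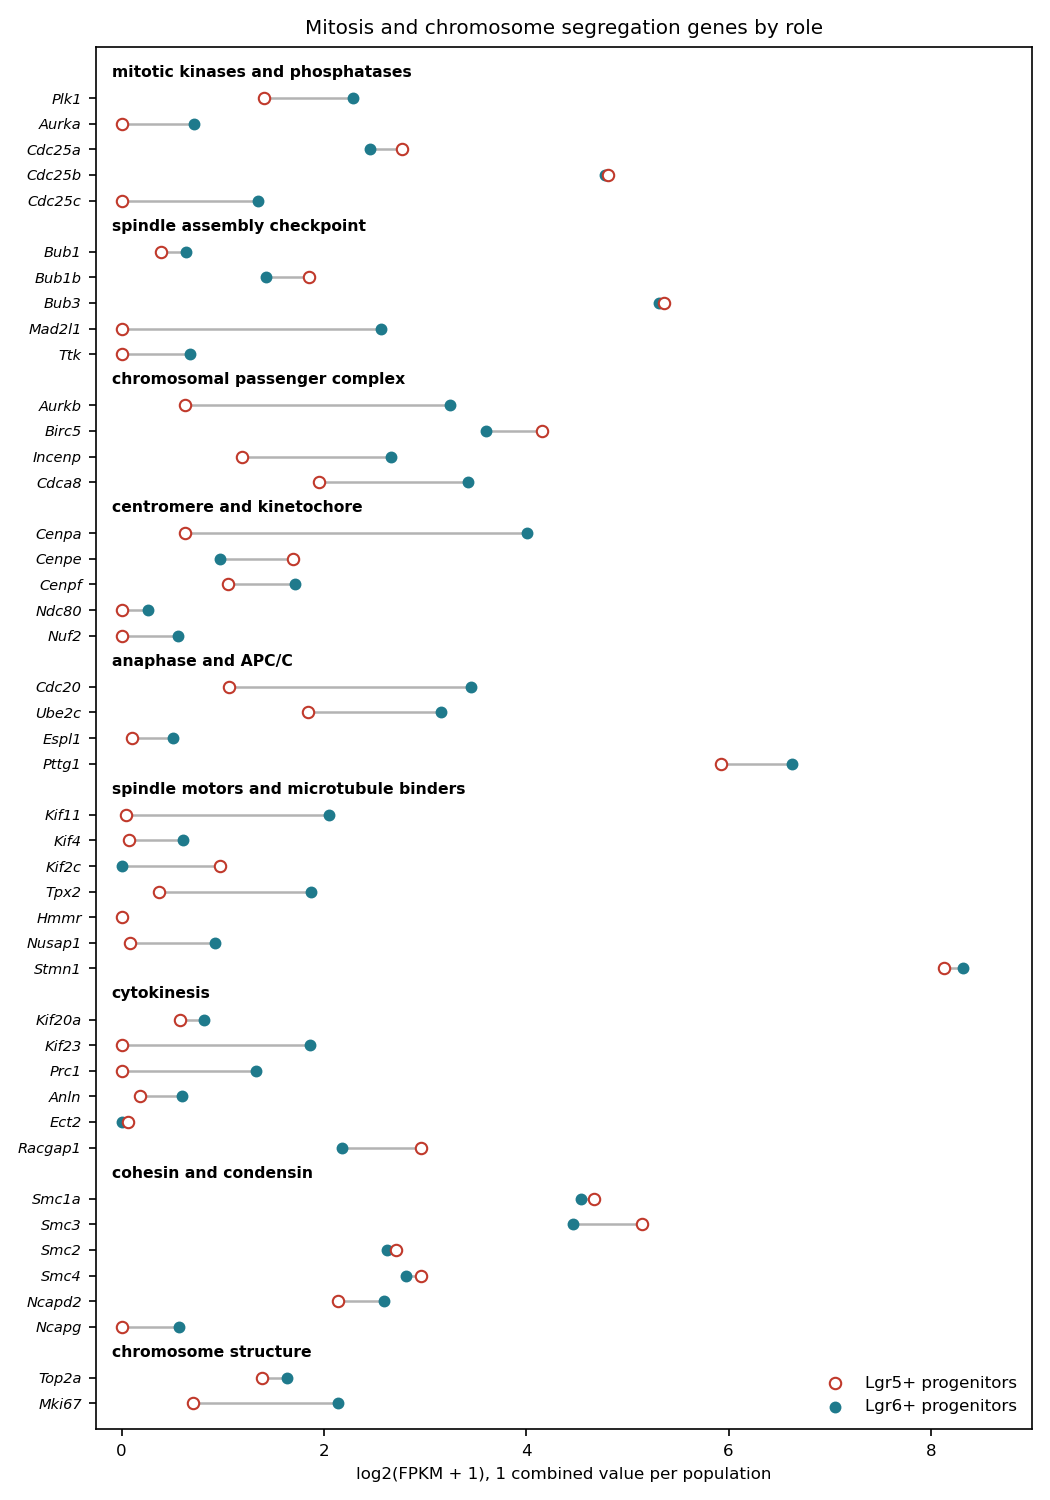
Level of each of the 44 genes as log2(FPKM + 1) in Lgr5+ cells (open red circles) and Lgr6+ cells (filled teal circles), 1 combined value per population, grouped by role. Genes of the upper level such as Stmn1, Bub3 and Smc1a lie close together, while many genes of low level lie further right in Lgr6+ cells, the widest gap being that of Cenpa.

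Genes that reached 1 FPKM in either population were kept, which held for 13436 genes in all and for 30 of the 44. Changes are Lgr6+ less Lgr5+ values of log2(FPKM + 1), a scale on which weakly expressed genes change less than their FPKM ratio. A kept gene was called when this change came to 1.5-fold or more. By this rule 16 of the 30 kept genes were higher in Lgr6+ cells, 3 were higher in Lgr5+ cells and 11 were under 1.5-fold apart. Over all kept genes, 28.5% were called higher in Lgr6+ cells and 23.3% higher in Lgr5+ cells. With both columns scaled to the same sum, the members' split was 18 against 1 and the shares of all genes moved to 37.6% and 16.3%. The 9 genes that were kept only through their Lgr6+ value had to be higher there, and all 9 are among the 16. Likewise *Cenpe*, the 1 gene kept only through its Lgr5+ value, is among the 3. Of the 20 genes that reached 1 FPKM in each population, 7 (35%) were called higher in Lgr6+ cells, against 21.4% of all such genes. In the other direction 2 of the 20 were called, against 22.5%. The median change was 0.68 for the 30 kept genes, 0.078 for these 20 genes and 0.035 for all kept genes. Among kept genes with a mean FPKM from 1 to 10, a band chosen after seeing the data, 13 of 21 members and 35.6% of all genes were called higher in Lgr6+ cells, and 2 of 21 and 22.2% were called higher in Lgr5+ cells. Of these 13, 7 were kept only through their Lgr6+ value.

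**Figure D2:**
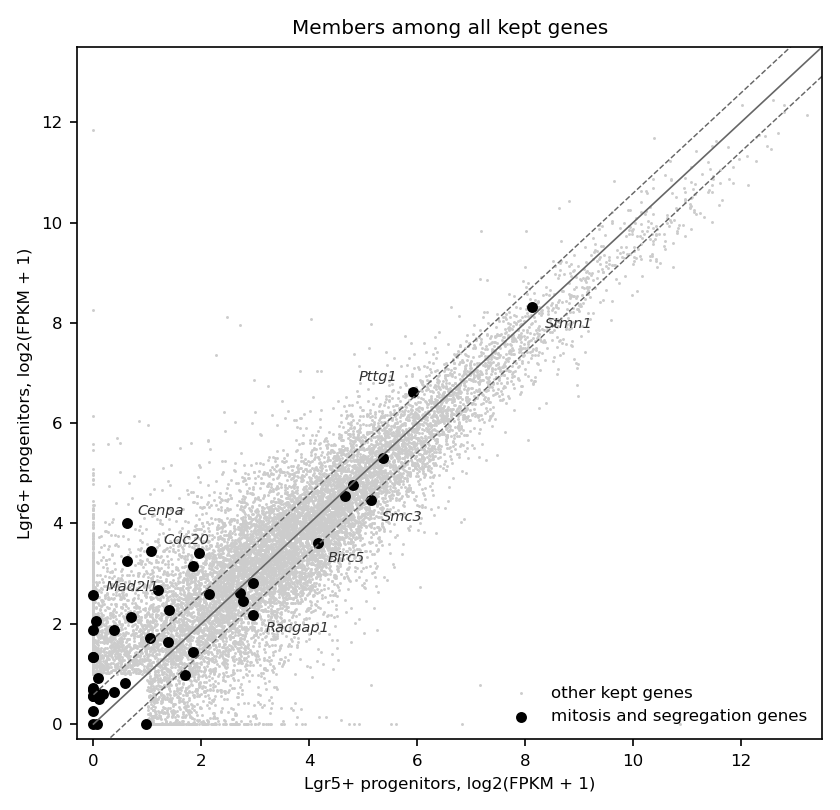
Log2(FPKM + 1) in Lgr6+ against Lgr5+ cells for the 13436 kept genes (grey) and the 44 mitosis and chromosome segregation genes (black), with the line of equal level and the 1.5-fold limits (dashed). Stmn1 and Smc1a lie near the line, while 16 kept members lie beyond the upper limit and 3 beyond the lower one.

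Low FPKM values fell on steps, and the steps differed between the populations. For genes with 1 annotated transcript, FPKM multiplied by the transcript length less 200 bases had a step of 0.127 (FPKM times kilobases) in Lgr5+ cells and of 0.0399 in Lgr6+ cells, a ratio of 3.19. Within 2% of the step lay 93 and 36 genes, against 7 and 5 in windows of the same width beside it. Dividing a gene's value by the step gives an approximate number of steps behind it, which equals fragments only if 1 step is 1 fragment. In Lgr5+ cells 10 of the 44 genes were listed at 0 and 10 more rested on under 10 steps. In Lgr6+ cells 3 were listed at 0 and none of the others was under 10 steps. At least 10 steps in both populations were held by 23 genes. These hold 8 of the 16 genes called higher in Lgr6+ cells and all 3 called higher in Lgr5+ cells. The part of depth in the direction of the list was not tested.

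**Figure D3:**
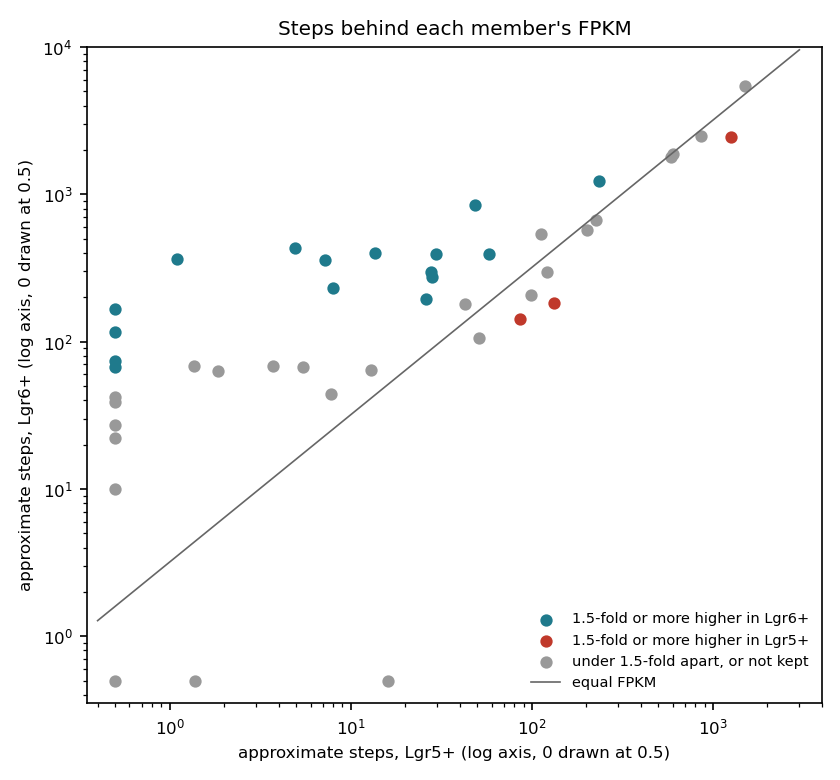
Approximate number of steps behind the FPKM of each of the 44 genes in Lgr5+ (horizontal, log axis) and Lgr6+ cells (vertical, log axis), with genes at 0 drawn at 0.5 and a line for equal FPKM. Genes 1.5-fold or more higher in Lgr6+ cells (teal) lie above the line and the 3 red genes below it, which follows from how they were called. Apart from Pttg1 at 234, the teal genes have from 0 to 57.7 Lgr5+ steps.

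Of the 5 genes for kinases and phosphatases that start mitosis, 4 were kept. Of these 2 were called higher in Lgr6+ and 0 higher in Lgr5+ cells, beside 28.5% and 23.3% of all kept genes. *Cdc25b*, a phosphatase that activates Cdk1, was the highest of the group, with an FPKM of 27.0 (Lgr5+) and 26.4 (Lgr6+), a change of -0.03. *Cdc25a*, which acts earlier in the cycle as well, had 5.82 and 4.47, a change of -0.32. *Plk1*, the polo-like kinase of centrosome maturation, on chromosome 7 from 122159435 to 122169884, had 1.65 and 3.87, a change of 0.88. The other pair was detected in Lgr6+ cells and listed at 0 in Lgr5+ cells. *Cdc25c* had an FPKM value of 1.54 in Lgr6+ cells and *Aurka*, the spindle pole kinase, had 0.638, which was below the limit for keeping a gene. *Cdc25c* was kept only through its Lgr6+ value, which fixed its direction. A listed value of 0 can be a failed estimate, so no ratio is given against it. At the Lgr6+ level, the Lgr5+ libraries would have held about 21.1 steps of *Cdc25c* and 8.53 of *Aurka*.

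Among the checkpoint genes, *Bub3*, which also binds mitotic regulators outside the checkpoint, had an FPKM value of 40.2 (Lgr5+) and 38.7 (Lgr6+). The checkpoint kinases and their partner were low in both populations. *Bub1b* had 2.61 and 1.69, a change of -0.42, and *Bub1* had 0.306 and 0.55. *Ttk*, the kinase that starts checkpoint signalling at the kinetochore, was at 0 for Lgr5+ cells but had 0.595 in Lgr6+ cells. *Mad2l1*, the inhibitor of Cdc20, on chromosome 6 from 66535221 to 66541107, was at 0 for Lgr5+ cells but had 4.92 in Lgr6+ cells, a change of 2.57. At that level the Lgr5+ libraries would have held about 52.0 steps. Of the 5 checkpoint genes 3 were kept, and of these only *Mad2l1* was called. Its direction was fixed by the filter, since it was kept only through its Lgr6+ value. Of all kept genes, 28.5% were called higher in Lgr6+ and 23.3% higher in Lgr5+ cells.

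The chromosomal passenger complex, which corrects wrong attachments and later guides cytokinesis, gave 3 calls among its 4 genes. *Aurkb*, its kinase, on chromosome 11 from 69045624 to 69051664, had an FPKM value of 0.540 (Lgr5+) and 8.51 (Lgr6+), a change of 2.63. The Lgr5+ value rested on about 7.17 steps and the Lgr6+ value on about 360. *Aurkb* was kept only through its Lgr6+ value, which fixed its direction. The scaffold *Incenp*, on chromosome 19 from 9872295 to 9899489, had 1.29 and 5.34, a change of 1.47. *Cdca8*, which encodes borealin, on chromosome 4 from 124918465 to 124936917, had 2.87 and 9.70, also a change of 1.47. All 3 were called higher in Lgr6+ cells, beside 28.5% of all kept genes. *Birc5*, which encodes survivin, went the other way with 16.8 (Lgr5+) and 11.2 (Lgr6+), a change of -0.55 that did not reach 1.5-fold. The subunits of 1 complex therefore did not shift together in these values, and the gene with the highest level of the 4 was the one that was lower in Lgr6+ cells.

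Of the 5 centromere and kinetochore genes, 2 were called higher in Lgr6+ cells and 1 higher in Lgr5+ cells. The shares of all kept genes were 28.5% and 23.3%. *Cenpa* encodes the histone H3 variant that marks centromeres and lies on chromosome 5 from 30666877 to 30674837. Its FPKM was 0.540 in Lgr5+ cells, from about 4.89 steps, and 15.1 in Lgr6+ cells, from about 435, a change of 3.38. *Cenpa* was kept only through its Lgr6+ value, so its direction was fixed by the filter. *Cenpf*, a large kinetochore protein, had 1.07 and 2.28, a change of 0.66 that was 0.31 after quantile normalization. *Cenpe*, the kinetochore motor, on chromosome 3 from 135212563 to 135273540, was called in the other direction with 2.23 (Lgr5+) and 0.957 (Lgr6+), a change of -0.72. It was kept only through its Lgr5+ value, which fixed its direction. Both *Cenpe* values rested on over 100 steps, since its transcript is long. *Ndc80* and *Nuf2*, which together contact the microtubule, were at 0 for Lgr5+ cells but had 0.201 and 0.475 in Lgr6+ cells. Neither was kept, and at these levels the Lgr5+ libraries would have held about 3.15 and 6.95 steps.

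The genes of anaphase were higher in Lgr6+ cells in all 4 cases, and the 3 that were kept were called. Of all kept genes, 28.5% were called in this direction. *Cdc20*, the activator of the APC/C, on chromosome 4 from 118432901 to 118437343, had an FPKM value of 1.09 (Lgr5+) and 9.97 (Lgr6+), a change of 2.39. *Ube2c*, the ubiquitin-conjugating enzyme that works with the APC/C, had 2.59 and 7.89, a change of 1.31. *Pttg1*, which encodes securin, on chromosome 11 from 43420244 to 43427463, was the second highest gene of the list with 59.8 and 97.8, a change of 0.70. It was the only gene with a mean FPKM of 10 or more that was called higher in Lgr6+ cells. *Espl1*, the separase that cuts cohesin, had 0.0733 and 0.423, both under the limit for keeping a gene.

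Among the spindle motors and microtubule-binding proteins, *Stmn1* was the highest, with an FPKM of 279.7 (Lgr5+) and 318.6 (Lgr6+), a change of 0.19. *Kif11*, the kinesin that pushes spindle poles apart, on chromosome 19 from 37376382 to 37421863, had 0.0304 and 3.14, a change of 2.01. Its Lgr5+ value rested on about 1.10 steps. *Tpx2*, which activates Aurora A on the spindle, had 0.294 and 2.66, a change of 1.5. *Kif11* and *Tpx2* were kept only through their Lgr6+ values, which fixed their direction. *Kif2c*, a microtubule depolymerase, was the exception, with 0.964 in Lgr5+ cells, from about 16.1 steps, and a listed value of 0 in Lgr6+ cells. The chromokinesin *Kif4* had 0.0492 and 0.528, and *Nusap1* had 0.0573 and 0.897. *Hmmr* was listed at 0 in both populations. None of these last 4 was kept.

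Cytokinesis genes were low. Of the 6 genes 3 were kept, 2 of them called higher in Lgr6+ and 1 higher in Lgr5+ cells. The shares of all kept genes were 28.5% and 23.3%. *Kif23*, a motor of the central spindle, on chromosome 9 from 61917277 to 61946810, was at 0 for Lgr5+ cells but had an FPKM value of 2.64 in Lgr6+ cells, a change of 1.87. *Prc1*, which bundles the microtubules of the central spindle, was listed at 0 and had 1.52, a change of 1.33. At these levels the Lgr5+ libraries would have held about 36.2 steps of *Kif23* and 23.0 of *Prc1*. Both genes were kept only through their Lgr6+ value, which fixed their direction. *Racgap1*, the partner of *Kif23* in the centralspindlin complex, on chromosome 15 from 99620496 to 99651656, had 6.77 (Lgr5+) and 3.52 (Lgr6+), a change of -0.78 that was -0.57 with both columns scaled to the same sum. *Kif20a* had 0.493 and 0.762, and the scaffold *Anln* had 0.133 and 0.513. *Ect2*, the exchange factor that activates RhoA at the cleavage furrow, had 0.0461 and a listed value of 0.

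The SMC proteins of cohesin and condensin were near equal or lower in Lgr6+ cells. *Smc1a* and *Smc3* form the cohesin ring that holds sister chromatids together. *Smc1a* had an FPKM value of 24.4 (Lgr5+) and 22.3 (Lgr6+), a change of -0.13. *Smc3*, on chromosome 19 from 53600396 to 53645831, had 34.4 and 21.0, a change of -0.68, and was the highest of the group. At the same sum its change was -0.43, under 1.5-fold. The condensin ATPases *Smc2* and *Smc4* had 5.56 and 5.15 for the former and 6.77 and 6.01 for the latter. *Ncapd2*, a condensin I subunit, had 3.40 and 5.05, a change of 0.46, and *Ncapg* was at 0 for Lgr5+ cells but had 0.482 in Lgr6+ cells. Of the 5 kept genes of this group, none was called higher in Lgr6+ cells and 1 was called higher in Lgr5+ cells. The shares of all kept genes were 28.5% and 23.3%. *Ncapg* was not kept and could not be called. The group's median change over its 6 genes was -0.11. Apart from the condensin subunit *Ncapg*, all of its genes had over 100 steps in both populations.

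*Mki67* and *Top2a*, which are widely used as markers of dividing cells, were low. *Mki67*, the gene of the Ki-67 protein that coats mitotic chromosomes, on chromosome 7 from 135689784 to 135716450, had an FPKM value of 0.626 (Lgr5+) and 3.41 (Lgr6+), a change of 1.44. Its long transcript gave about 48.5 and 843 steps. *Mki67* was kept only through its Lgr6+ value, which fixed its direction. *Top2a*, the topoisomerase that untangles sister chromatids, had 1.61 and 2.10, a change of 0.25. Of the kept genes, 9.40% had a lower FPKM than *Mki67* in Lgr5+ cells and 23.5% in Lgr6+ cells. For *Top2a* these shares were 16.6% and 15.4%, so its place among all genes was about the same in both populations while that of *Mki67* was not.

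The promoter motifs were also counted by how the genes moved. Of the 12 genes called higher in Lgr6+ cells for which a promoter was listed, 10 held both the CCAAT box and TTTGAA. Of the other 25 genes with a promoter, 13 did. Of the kept genes with a listed promoter, 6.80% did. *Pttg1* and *Mad2l1*, the other 2 of the 12, held neither motif. Among the 25, *Smc3*, *Birc5*, *Nuf2* and *Nusap1* held neither. The CCAAT box alone was held by *Smc1a*, *Cdc25b*, *Cdc25a*, *Bub1* and *Cenpe*, and TTTGAA alone by *Ndc80*, *Kif2c* and *Anln*. Among the 12 genes, *Mad2l1*, *Cenpa*, *Kif11*, *Kif23*, *Prc1* and *Mki67* were kept only through their Lgr6+ value, which fixed their direction. The 25 include members that were not kept and so could not be called. Whether the motifs go with the direction of change was not tested.

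A further 101 mitosis genes that are not in the list were read from the table, of which 83 were kept. By the same rule 36 of them were called higher in Lgr6+ cells and 15 higher in Lgr5+ cells, and the median change of the 83 was 0.38. The filter fixed the direction of 21 of the 36 and of 6 of the 15, which reached 1 FPKM in a single population. Of the 53 that reached it in each, 15 (28.3%) were called higher in Lgr6+ cells and 9 (17.0%) higher in Lgr5+ cells, against the 21.4% and 22.5% of all such genes. *Cdk1*, the kinase that drives mitosis, had an FPKM value of 0.119 (Lgr5+) and 5.49 (Lgr6+). Its cyclins were low, with 0.0608 and 0.875 for *Ccnb1* and a listed value of 0 and 1.18 for *Ccnb2*. The largest changes were those of the centromere gene *Cenpm*, listed at 0 and with 14.6 in Lgr6+ cells, and of the checkpoint gene *Trip13*, with 0.0472 and 6.81. Toward Lgr5+ cells they were those of the kinetochore genes *Ska3*, with 6.43 and 0.0361, and *Pmf1*, with 95.0 and 25.6.

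The sorted populations also differed in markers of other cell types. The shares of all kept genes called were 28.5% toward Lgr6+ and 23.3% toward Lgr5+ cells. All 10 kept macrophage markers of 12 were called higher in Lgr6+ cells, with a summed FPKM of 24.7 in Lgr5+ and 309 in Lgr6+ cells. *C1qb*, *C1qc*, *Tyrobp*, *Csf1r*, *Aif1* and *Ptprc* were listed at 0 in Lgr5+ cells. All of the 10 but *Cd68* and *Laptm5* were kept only through their Lgr6+ value, which fixed their direction. All 6 endothelial markers were called in the same direction, with sums of 5.38 and 53.4 and *Kdr* listed at 0 in Lgr5+ cells. The filter fixed this direction for all of them but *Cdh5* and *Cldn5*. Of the 7 fibrocyte and mesenchyme markers 5 were called, with sums of 51.7 and 689, and of the 5 Schwann cell and glial markers 2 were called, with sums of 73.0 and 197 and *Foxd3* listed at 0 in Lgr6+ cells. Markers of HCs were present in both populations, with an FPKM of at least 19 for each of 6 genes, and 5 of the 6 were called higher in Lgr6+ cells, with sums of 231 and 503. Erythroid markers went the other way, with sums of 629 and 108, and 4 of 5 called. Of these, *Hba-a1* and *Hba-a2* were kept only through their Lgr5+ value. Of the 8 supporting cell and progenitor markers, 3 were called higher in Lgr5+ and 1 higher in Lgr6+ cells, with sums of 919 and 350. *Sox2*, the supporting cell marker, had an FPKM value of 139.6 and 54.8. The genes used for sorting did not separate the populations by name, since *Lgr5* had 9.65 in Lgr5+ and 25 in Lgr6+ cells and *Lgr6* had 2.06 and 2.90. Whether the mitosis genes were carried by progenitors or by other cells was not tested. In bulk samples, more dividing cells and more RNA of these genes per cell cannot be told apart.

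**Figure D4:**
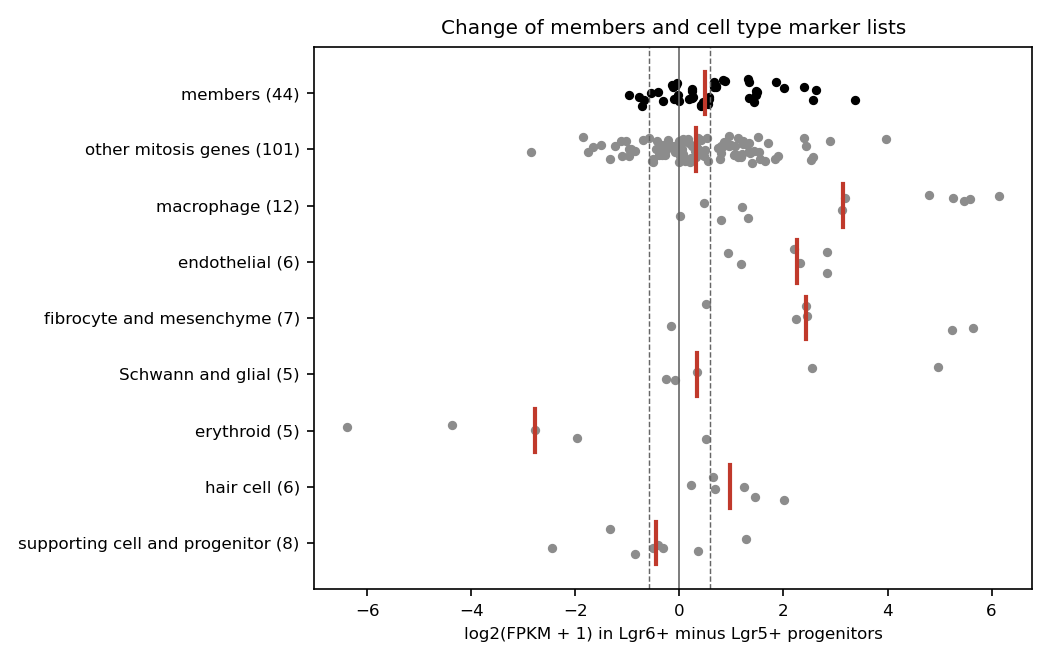
Change in log2(FPKM + 1), Lgr6+ minus Lgr5+ cells, for each of the 44 genes (black), for 101 other mitosis genes and for the genes of 7 cell type marker lists (grey), with the median of each list (red bar), 0 (solid line) and the 1.5-fold limits (dashed). The members reach 3.38 for Cenpa, and the medians of the macrophage, endothelial and mesenchyme lists are 3.15, 2.26 and 2.44, against -2.78 for the erythroid list.

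The levels of the 44 genes kept much of their order between the populations, with a Spearman correlation of 0.757 across genes, against 0.846 across all kept genes. The first value includes the 14 members that were not kept, so the sets are unlike. Genes are not independent replicates and all values of a population come from the same libraries, so these coefficients describe the table. The order from *Stmn1* over *Pttg1* to *Bub3* was the same in both populations. Next came *Smc3*, *Cdc25b* and *Smc1a* in Lgr5+ cells, whereas *Cdc25b* and *Smc1a* were ahead of *Smc3* in Lgr6+ cells.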

How the data were processed

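Values were taken from the 1 table that the authors deposited, with 1 FPKM per gene and population. Per the methods and labels, the authors made libraries with the SMART-Seq v4 kit, used Trimmomatic for trimming and TopHat for mapping, and obtained the deposited FPKM from Cufflinks, with versions not given in the sources used here. FPKM values are scaled for transcript length and mapped fragments. The paper names mm9 and the labels mm10. The table's intervals overlapped the gene in GRCm38 for 99.1% of 19490 genes and in NCBIM37 for 12.7%, so gene positions are given from RefSeq for GRCm38. The 3 columns of the authors' own comparison (fold change, *p*-value, *q*-value) were not used.

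The 44 genes, role groups, marker lists and alternatives were chosen with earlier results of these data known. Genes were named by a rule that takes every member 1.5-fold apart or listed at 0 in 1 population, the highest of each role, and for the other mitosis genes *Cdk1*, *Ccnb1*, *Ccnb2* and the 2 largest changes each way. The remaining members were added so that each is accounted for. Promoter stretches were limited to 5, and none was taken from chromosome 18. Transcript lengths for the steps are medians of protein-coding transcripts in GENCODE vM1, and genes over 600 bases with 1 transcript gave the step. Read totals per library were not used, so no counting intervals are given. Calculations used Python 3.11.15, numpy 2.4.6 and pandas 2.3.3 and were tested on simulated data.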

Additional observations from a re-analysis of the deposited data

How the results depend on the processing

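No paired analysis was possible because the table holds 1 combined value per population, and for the same reason no replicate could be left out. Of 19 called members, 16 were past 1.5-fold under every alternative that gave them a value. Most of these alternatives could not have weakened a call. A filter leaves a gene's change as it is, and a smaller pseudocount or none enlarges it. The factor for the same upper quartile was 0.999. This left quantile normalization and, for calls toward Lgr5+ progenitors, scaling to the same sum. The change of *Cenpf* was 0.31 after quantile normalization, and with both columns scaled to the same sum *Racgap1* and *Smc3* were at -0.57 and -0.43. The 16 members higher in Lgr6+ progenitors became 7 when genes had to reach 5 FPKM in either population, and also 7 when they had to reach 1 FPKM in each. The 3 higher in Lgr5+ progenitors became 5 after quantile normalization, 5 by a ratio without pseudocount, 1 at the same sum and 0 at 2-fold. The median change of 0.68 became 0.87 with a pseudocount of 0.1, 0.50 without a filter, 0.078 at a minimum of 5, 0.078 with 1 FPKM reached in each population, 0.48 after quantile normalization, 0.96 at the same sum and 0.48 by the ratio. It stayed above 0 in each of these. Scaling to the same sum moved the median of all kept genes to 0.28, so that the members lay 0.68 above it, and gave 18 members against 1 in place of 16 against 3. At 2-fold the split was 13 against 0, with 18.2% and 11.7% of all kept genes called. With 5 FPKM reached in either population, 24.1% of all genes were called in each direction, and 21.4% and 22.5% with 1 FPKM in each. The order of the changes also moved: *Cenpa* was first at 3.38, but with a pseudocount of 0.1 it was at 4.57, below *Mad2l1* at 5.65, *Kif23* at 4.78 and *Kif11* at 4.63, and toward Lgr5+ progenitors *Racgap1* at -0.92 was then behind *Cenpe* at -1.14. The filters that lowered the count also leave fewer members, 18 and 20. The part of depth in the members listed at 0 or on few steps in Lgr5+ progenitors was not tested. The deposited FPKM has no counting error or replicate spread, so which single differences exceed either is not known.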

Other observations

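Large complexes of mitosis outside the list of 44 genes differed in level, and their calls went in both directions. The 14 APC/C genes were all kept and none was listed at 0, with summed values of 1412 (Lgr5+) and 977 (Lgr6+) FPKM. Of the 14, 3 were called in each direction, beside 28.5% (Lgr6+) and 23.3% (Lgr5+) of all kept genes. *Anapc13*, a small subunit of the complex, had the highest level, 565 and 416. *Ube2s*, the enzyme that extends the ubiquitin chains of APC/C substrates, had 329 and 151, whereas *Ube2c* of the main list, which starts them, was higher in Lgr6+ progenitors. Of the 13 other cohesin and condensin genes 12 were kept, with 1 called higher in Lgr6+ and 2 higher in Lgr5+ progenitors. *Esco2*, which acetylates cohesin in S phase, had 2.72 and 0.178. *Rad21*, the cohesin subunit that separase cuts, had 21.2 and 19.9.

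Of the 23 kept genes among the other centromere and kinetochore genes, 13 were called higher in Lgr6+ and 5 higher in Lgr5+ progenitors, beside 28.5% and 23.3% of all kept genes. Of the kept genes among the other kinases and regulators, 2 of 7 were called higher in Lgr6+ and 1 higher in Lgr5+ progenitors. The counts were 4 and 1 of 7 for the other checkpoint genes, 8 and 2 of 14 for the other spindle genes and 3 and 1 of 4 for the other cytokinesis genes. These counts include genes whose direction was fixed by the filter. Over all the other mitosis genes this held for 21 of the 36 calls toward Lgr6+ progenitors. Toward Lgr5+ progenitors it held for 6 of the 15. The Ska complex, which couples kinetochores to microtubules, was divided. *Ska1* was at 0 for Lgr5+ cells but had 1.10 FPKM for Lgr6+ cells, *Ska2* had 0.448 and 6.87, and *Ska3* had 6.43 and 0.0361. Each of them reached 1 FPKM in a single population, which fixed its direction. *Esco2*, *Rad21*, *Anapc13*, *Ube2s*, *Ska1* and *Ska2* were named after their values were seen.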
